A study of Mus musculus with 34 samples.

Results

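The interaction of bomedemstat (BOM) with anti-PD1 in flank tumors of small cell lung cancer (SCLC) was taken from the RNA sequencing of 18 tumors, out of 34 samples in all. The members are every tumor column of the count table, and they were chosen by their treatment labels and not by a measured value. The tumors grew from the mouse SCLC line RP-48OVA-LLO190 in the flank of immunocompetent mice, and the labels do not explain the suffix OVA-LLO190. There were 4 groups, BOM plus anti-PD1 (n = 4), BOM (n = 4), anti-PD1 (n = 5) and Vehicle (n = 5), all labelled 16 d. Each library is polyadenylated RNA of 1 labelled tumor, which holds tumor cells and host cells together. The labels name neither the doses nor the vehicle, nor a control antibody for the tumors without anti-PD1, and all tumors share 1 cell line. The interaction is the log2 difference of BOM plus anti-PD1 over anti-PD1, less the log2 difference of BOM over Vehicle. A positive value means that the BOM difference lay higher on top of anti-PD1 than without it.

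BOM inhibits LSD1 (Kdm1a), a histone demethylase that works with corepressors such as CoREST to keep enhancers silent, and in SCLC it helps to hold the neuroendocrine state. Loss of LSD1 activity is known to release Notch receptor genes and genes of interferon signaling in tumor cells. Anti-PD1 blocks an inhibitory receptor of T cells. Activated T cells secrete interferon gamma, which acts through IRF1 to induce the genes that load peptides onto MHC class I, which SCLC commonly expresses at a low level.

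The libraries held 5.64 to 13.2 M counts except Vehicle tumor 1 with 82.2 M. Vehicle tumors 1 and 2 stood apart from the rest of their group, which bears on every value of BOM over Vehicle and of the interaction. To place each tumor, 707 genes at least 2-fold higher and 306 at least 2-fold lower in BOM plus anti-PD1 than in anti-PD1 tumors were averaged, with 0% at the anti-PD1 mean and 100% at the BOM plus anti-PD1 mean. The BOM plus anti-PD1 tumors then lay at 103, 100, 98.8 and 98.4% and the anti-PD1 tumors at 9.6, -1.99, 1.79, -2.93 and -6.47%, which the choice of genes fixes. The tumors not used in that choice lay at 94.2, 87.4, 92.8 and 94.7% for BOM, against 70.8, 54.8, 5.64, 10.1 and 0.0411% for Vehicle 1 to 5. Vehicle 1 and 2 were thus nearer to the BOM tumors than to the other 3 Vehicle tumors on these genes. The adenylate cyclase gene Adcy5 (ENSMUSG00000022840.9), which is one of the genes of this scale, had 47.9 and 26.9 CPM (counts scaled to the library total with TMM factors) in Vehicle 1 and 2 and 1.77 to 6.29 CPM in Vehicle 3 to 5. The reason was not tested. The values of the interaction are given with all 18 libraries and again with the 16 libraries that remain without Vehicle 1 and 2. Vehicle 1 and 2 were left out because earlier results of these data had shown them to stand apart. The p-values with 16 libraries thus follow a choice made on measured values.

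**Figure D1:**
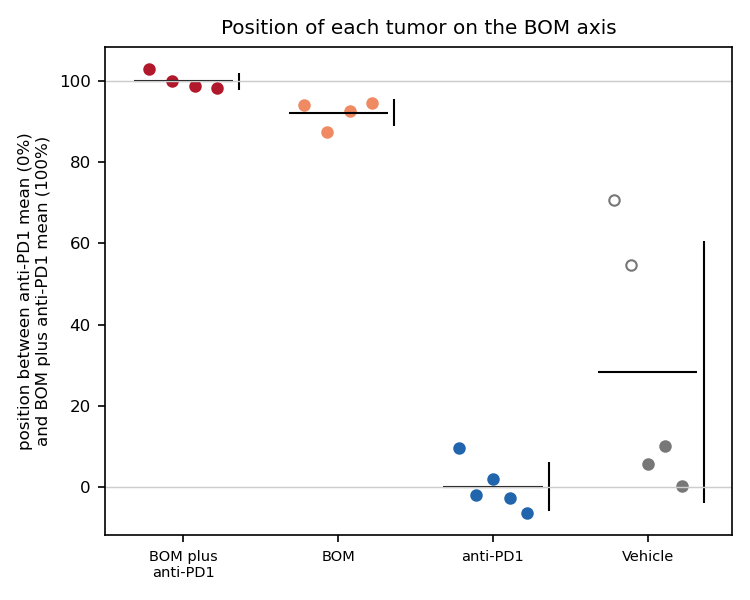
Position of each of the 18 tumors between the anti-PD1 mean (0%) and the BOM plus anti-PD1 mean (100%), in percent, over 707 genes higher and 306 lower with BOM on top of anti-PD1. Each point is a tumor, horizontal lines are group means, vertical bars are SDs and open circles are Vehicle 1 (70.8%) and Vehicle 2 (54.8%), which lie above the other Vehicle tumors (0.0411 to 10.1%).

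No gene passed the interaction test. edgeR's quasi-likelihood test called 0 of 14332 genes at an adjusted p under 0.05 (percent called 0), with a lowest adjusted p of 0.391, and limma voom called 0 as well. At an unadjusted p under 0.05 there were 1258 genes (8.78%), 825 with a positive value (5.76%) and 433 with a negative value (3.02%). Without Vehicle 1 and 2, edgeR called 0 of 14450 genes (percent called 0), with 565 genes at an unadjusted p under 0.05 (3.91%), 365 positive (2.53%) and 200 negative (1.38%). DESeq2 called 6 genes with 18 libraries, all positive, and 0 with 16. The 6 genes were Usp18, Pla2g4f, Sgsm2, 4932438H23Rik and the muscle genes Myl1 and Ckm. For Myl1 and Ckm DESeq2 gave a log2 value of 19.0 each and edgeR an adjusted p of 0.77 and 0.794. The 95% confidence interval of the log2 interaction reached 0.365 to either side in the median gene (0.387 with 16 libraries), so that smaller interactions were not detectable in a typical gene even before adjustment.

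The BOM differences behind the interaction covered many genes, and those called both with and without anti-PD1 nearly all had the same direction. With 18 libraries their median size on the log2 scale was 0.638 with anti-PD1 and 0.53 without it. With anti-PD1, BOM raised 2263 genes (15.8% of those tested) and lowered 2374 (16.6%), 4637 in all (32.4%). Without anti-PD1, BOM raised 845 genes (5.9%) and lowered 1237 (8.63%), 2082 in all (14.5%). This total was 1267 without BOM tumor 1, 1253 without BOM tumor 4, and 1367, 1318 and 1210 without Vehicle 3, 4 and 5. It was 3363 (23.3%) without Vehicle 1 and 2, with 1689 genes higher (11.7%) and 1674 lower (11.6%). The comparisons share no tumor. The genes called in both numbered 1723, which is 37.2% of those called with anti-PD1 and 82.8% of those called without it, and 1721 of them had the same direction. Without Vehicle 1 and 2, 2754 genes were called in both (59.9% and 81.9%), all of them in the same direction. Across genes, which are not independent replicates, the log2 differences had a Pearson r of 0.682 and a Spearman rho of 0.639 with 18 libraries, and 0.82 and 0.75 with 16.

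**Figure D2:**
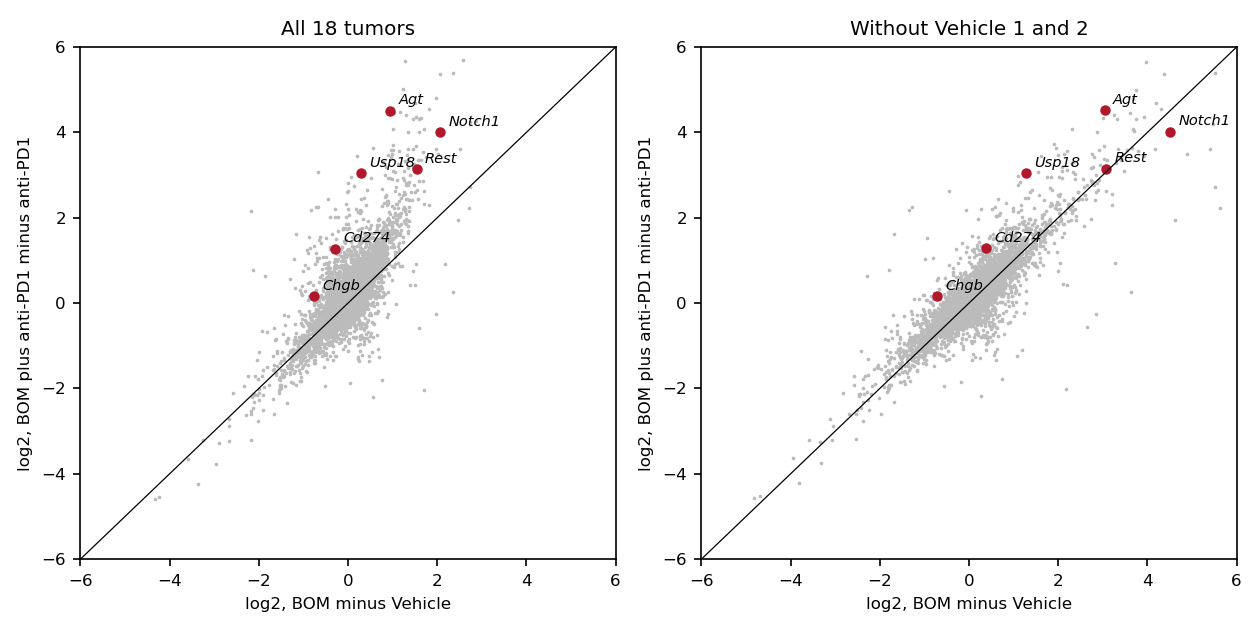
Log2 difference of BOM plus anti-PD1 over anti-PD1 (vertical) against that of BOM over Vehicle (horizontal) for the 12112 genes whose mean log2 CPM reached 2, from all 18 libraries in one panel and without Vehicle 1 and 2 in the other; 10 genes lie outside the axes. Genes on the diagonal have an interaction of 0, and Notch1 and Rest lie above it with 18 libraries and close to it with 16.

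The 2 genes called in opposite directions were Sgsm2 and Clec1b. Clec1b, a C-type lectin receptor of platelets and myeloid cells, differed by 1.21 with anti-PD1 (adjusted p = 0.0191) and by -1.60 without it (adjusted p = 0.0138), an interaction of 2.81 (unadjusted p = 6.93e-05), or 2.19 with 16 libraries, at a low level (mean log2 CPM 0.67). No gene had opposite calls without Vehicle 1 and 2.

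The interferon gamma and type I interferon response lists had positive interactions in every measured member, and the promoters of 4 interferon-induced genes are shown because the letters known to be bound by interferon signaling can be read in them. The sequences are RefSeq windows of GRCm38.p6 from 250 bases before to 50 after an annotated start, on the gene's strand, 5′ to 3′. Capitals mark the interferon-stimulated response element (ISRE, searched as TTTC and again TTTC after any 2 bases) or the gamma-activated site (GAS, TTCNNNGAA) on either strand, and the motifs may overlap. In Irf1 a GAS begins at -90 from the start, in Isg20 at -73, in Cxcl10 an ISRE at -213, and in Igtp a GAS at -45 and an ISRE at -34.
Irf1 (chr11:53769764-53770063, plus strand): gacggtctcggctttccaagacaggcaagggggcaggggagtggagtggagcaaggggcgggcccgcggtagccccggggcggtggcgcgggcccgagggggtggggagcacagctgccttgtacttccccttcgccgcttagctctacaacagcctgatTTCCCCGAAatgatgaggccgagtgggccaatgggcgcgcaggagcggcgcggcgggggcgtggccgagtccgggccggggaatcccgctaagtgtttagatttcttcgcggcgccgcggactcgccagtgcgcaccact
Igtp (chr11:58199306-58199605, plus strand): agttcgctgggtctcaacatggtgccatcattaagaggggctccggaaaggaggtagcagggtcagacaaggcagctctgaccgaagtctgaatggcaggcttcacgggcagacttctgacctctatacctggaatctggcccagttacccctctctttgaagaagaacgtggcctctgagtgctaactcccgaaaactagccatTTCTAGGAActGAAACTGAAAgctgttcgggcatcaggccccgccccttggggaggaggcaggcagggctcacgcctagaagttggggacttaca
Isg20 (chr7:78913174-78913473, plus strand): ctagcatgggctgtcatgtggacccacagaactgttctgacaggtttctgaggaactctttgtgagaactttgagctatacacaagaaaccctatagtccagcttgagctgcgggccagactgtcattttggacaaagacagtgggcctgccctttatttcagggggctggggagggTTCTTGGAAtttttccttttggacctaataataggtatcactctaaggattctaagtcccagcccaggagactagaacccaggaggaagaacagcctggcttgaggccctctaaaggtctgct
Cxcl10 (chr5:92348840-92349139, minus strand): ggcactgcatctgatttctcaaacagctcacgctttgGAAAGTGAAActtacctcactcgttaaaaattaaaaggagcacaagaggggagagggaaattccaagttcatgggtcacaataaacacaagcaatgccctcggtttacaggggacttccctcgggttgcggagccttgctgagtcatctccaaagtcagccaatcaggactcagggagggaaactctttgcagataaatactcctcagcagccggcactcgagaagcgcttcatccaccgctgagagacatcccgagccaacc

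Of 27025 mouse genes with such a window, 3.99% hold the ISRE letters, 9.55% the GAS letters and 12.9% either. Of the 12 interferon gamma response genes with a window (of 16 measured), 8 hold an ISRE (66.7%), 5 a GAS (41.7%) and 10 either (83.3%). Of 17 type I interferon response genes with a window (of 21), 11 hold either (64.7%), of 14 MHC class I genes 5 (35.7%) and of 17 proliferation genes 2 (11.8%). Of 5 MHC class II genes with a window, 1 holds either. The windows printed are those that hold a motif. The only window of Xaf1, a type I interferon response gene described later, holds neither, nor does the second window of Irf1 or either of the other two windows of Isg20, which begin at alternative starts. A match describes the sequence and does not show a bound site. The interferon lists were made of genes known to be induced by interferon. Their shares therefore describe the lists and would be the same whatever these tumors expressed.

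All 16 measured interferon gamma response genes had a positive interaction, with a median of 2.09 against 0.01 over all genes tested, and 13 of 16 reached an unadjusted p under 0.05, against 8.78% of all genes. Without Vehicle 1 and 2 all 16 were still positive, with a median of 1.17 against 0.01 over all genes, and 1 of 16 reached that p, against 3.91%. None passed after adjustment in either fit. With anti-PD1, BOM raised 13 of the 16 genes (15.8% of all genes; median 2.04). Without anti-PD1 it raised 0 of 16 (5.9% of all genes; median 0.05), or 1 of 16 without Vehicle 1 and 2 (11.7% of all genes; median 0.94). The 13 were 7 without BOM plus anti-PD1 tumor 1.

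Irf1, the transcription factor that carries the interferon gamma signal to MHC class I genes (ENSMUSG00000018899.16, chromosome 11, 53770014 to 53778374, mm10), had 157, 102, 119.6 and 141 CPM in BOM plus anti-PD1 tumors, against 71.9, 40.2, 48.2, 49.6 and 53.1 CPM in anti-PD1 tumors. It had 64.5, 77.6, 108 and 69.5 CPM in BOM tumors, against 98.7, 98.2, 54.5, 60.4 and 48.8 CPM in Vehicle tumors. All 4 BOM plus anti-PD1 tumors lay above all 5 anti-PD1 tumors, while the BOM and Vehicle tumors overlapped, with Vehicle 1 and 2 close to the highest BOM tumor. Irf1 rose by 1.30 on the log2 scale with anti-PD1 (edgeR adjusted p = 0.000336), and without anti-PD1 the difference was 0.13 (adjusted p = 0.764). The interaction was 1.18 ± 0.31 (SE; 95% confidence interval 0.52 to 1.83; unadjusted p = 0.00141). Without Vehicle 1 and 2 it was 0.76 ± 0.25 (0.23 to 1.29; unadjusted p = 0.0073), and Irf1 then rose with BOM alone as well, by 0.55 (adjusted p = 0.0459).

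Igtp, an immunity-related GTPase that guards against pathogens inside cells (ENSMUSG00000078853.8, chromosome 11, 58199556 to 58207591), had 226, 53.1, 116 and 145 CPM in BOM plus anti-PD1 tumors, against 45.8, 11.4, 9.10, 7.15 and 22.3 CPM in anti-PD1 tumors. Without anti-PD1 it had 21.8, 34.3, 103 and 22.3 CPM in BOM tumors, against 73.6, 82.2, 29.5, 23.8 and 9.07 CPM in Vehicle tumors. The BOM plus anti-PD1 tumors again lay above every anti-PD1 tumor, and BOM tumor 3 lay far above the other 3 BOM tumors. Igtp rose by 2.81 with anti-PD1 (adjusted p = 0.00321). Its interaction was 2.82 (0.93 to 4.71; unadjusted p = 0.00579), or 1.69 without Vehicle 1 and 2 (unadjusted p = 0.0675). Gbp3, a guanylate binding protein of the same response, had an interaction of 2.88, or 1.87 without those Vehicle tumors. The Igtp, Gbp, H2, Ifit and Oas genes belong to families in which some members are closely similar in sequence. Reads may have been split among such members, and their counts are uncertain.

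The type I interferon response list, genes that infected or sensing cells induce, had nearly the same median in both fits. All 21 measured genes had a positive interaction in both fits, with a median of 1.12 with 18 libraries and 1.02 with 16. At an unadjusted p under 0.05 there were 8 of 21 genes with 18 libraries and 5 of 21 with 16, against 8.78% and 3.91% of all genes. The median was 0.739 without BOM plus anti-PD1 tumor 1. With anti-PD1, BOM raised 12 of 21 genes (15.8% of all genes; median 1.13), a count of 6 without BOM plus anti-PD1 tumor 1 or without anti-PD1 tumor 2, 4 or 5. Without anti-PD1, 0 of 21 rose (5.9% of all genes; median -0.01), or 4 rose and 1 fell without Vehicle 1 and 2 (11.7% and 11.6% of all genes; median 0.21).

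Usp18, a protease that removes ISG15 from proteins and dampens the type I interferon receptor (ENSMUSG00000030107.10, chromosome 6, 121245906 to 121270917), had the lowest p of the list. It had 22.4, 15.6, 7.31 and 17.2 CPM in BOM plus anti-PD1 tumors, against 3.71, 1.75, 1.78, 1.02 and 1.27 CPM in anti-PD1 tumors. In the tumors without anti-PD1 it had 8.04, 5.52, 7.67 and 4.80 CPM in BOM tumors, against 7.24, 10.3, 2.65, 2.76 and 2.61 CPM in Vehicle tumors. The BOM plus anti-PD1 tumors did not overlap the anti-PD1 tumors, and the 4 BOM tumors lay above Vehicle 3 to 5 and below Vehicle 2. Usp18 rose by 3.04 with anti-PD1 (adjusted p = 0.000164), against 0.28 without it (adjusted p = 0.724), a value that became 1.28 without Vehicle 1 and 2 (adjusted p = 0.0254). The interaction was 2.76 ± 0.63 (SE; 1.44 to 4.08; unadjusted p = 0.00036; edgeR adjusted p = 0.391, DESeq2 adjusted p = 0.0396). With 16 libraries it was 1.77 ± 0.52 (0.67 to 2.86; unadjusted p = 0.00334), and no tool called it.

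Isg20, an interferon-induced exonuclease that degrades RNA (ENSMUSG00000039236.18, chromosome 7, 78913424 to 78920396), had 8.86, 6.0, 9.11 and 6.22 CPM in BOM plus anti-PD1 tumors, against 1.45, 1.75, 1.43, 2.04 and 1.97 CPM in anti-PD1 tumors. Its other pair of groups had 5.09, 3.43, 6.19 and 4.30 CPM in BOM tumors, against 6.03, 4.26, 2.65, 2.15 and 3.98 CPM in Vehicle tumors. Each BOM plus anti-PD1 tumor lay above every anti-PD1 tumor by a wide margin, and the BOM and Vehicle tumors overlapped. Isg20 rose by 2.11 with anti-PD1 (adjusted p = 8.01e-05), and its interaction was 1.85 (unadjusted p = 0.000169), or 1.43 with 16 libraries. Xaf1, an interferon-induced promoter of apoptosis, had an interaction of 1.29, or 0.83 with 16 libraries, and rose by 1.65 with anti-PD1 (adjusted p = 0.000157).

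**Figure D3:**
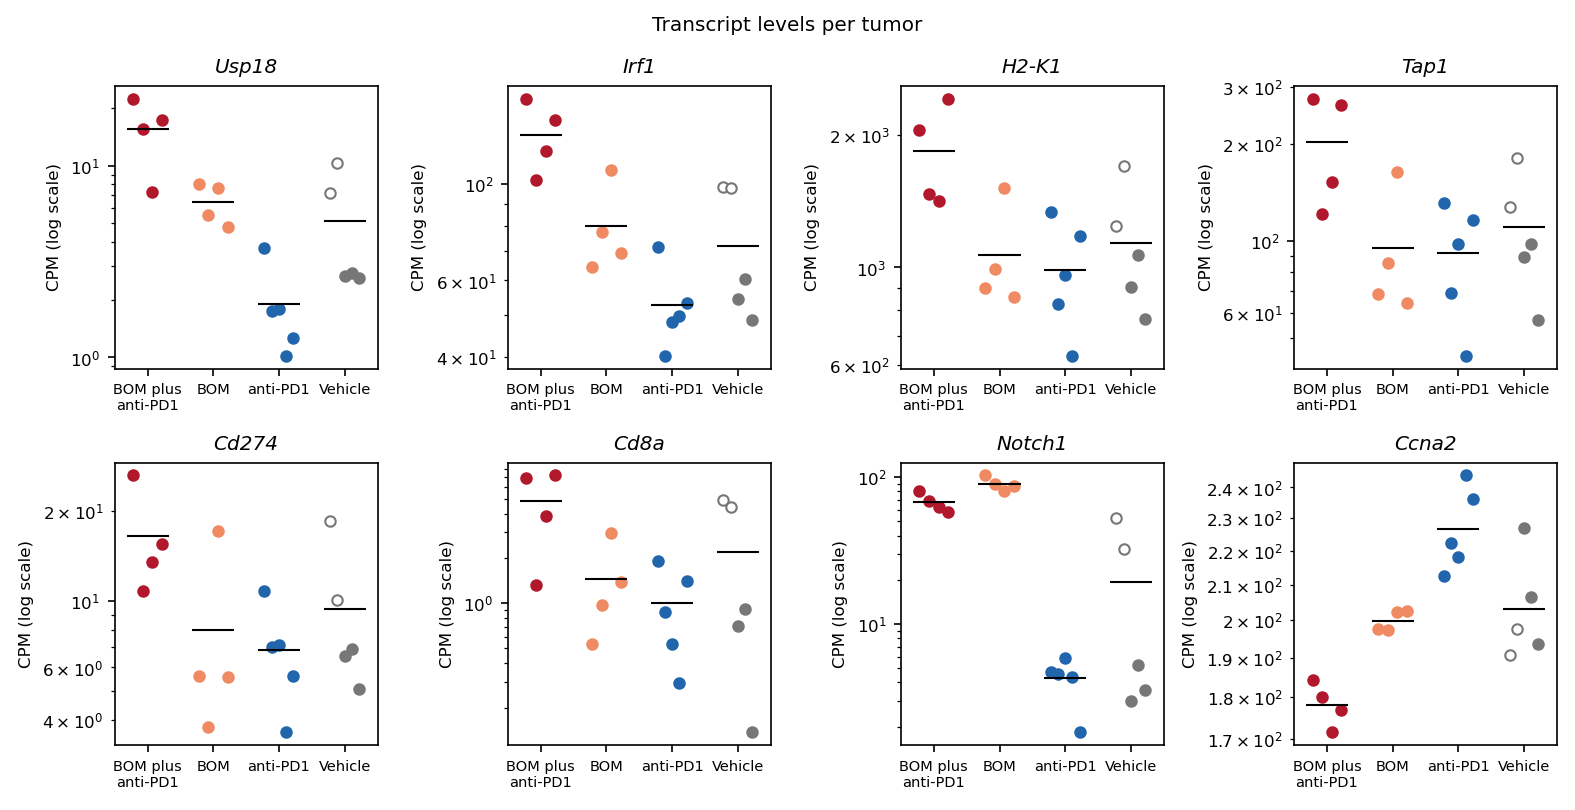
CPM (log axis) of Usp18, Irf1, H2-K1, Tap1, Cd274, Cd8a, Notch1 and Ccna2 in each of the 18 tumors, with groups in the order BOM plus anti-PD1, BOM, anti-PD1 and Vehicle. Each point is a tumor, lines are group means and open circles are Vehicle 1 and 2; for Usp18 the BOM plus anti-PD1 tumors (7.31 to 22.4 CPM) lie above the anti-PD1 tumors (1.02 to 3.71 CPM) without overlap.

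Genes of MHC class I presentation, which load peptides for recognition by CD8 T cells, were positive as a list in both fits. All 16 measured genes had a positive interaction, with a median of 0.87 with 18 libraries and 0.62 with 16, and 11 and 2 of them reached an unadjusted p under 0.05 (8.78% and 3.91% of all genes). With anti-PD1, BOM raised 13 of 16 (15.8% of all genes; median 0.98), and 5 without BOM plus anti-PD1 tumor 1. Without anti-PD1 it raised 0 of 16 (5.9% of all genes; median -0.06), or 1 of 16 without Vehicle 1 and 2 (11.7% of all genes; median 0.27). The summed level of the list was 5878 to 8591 CPM in BOM plus anti-PD1 tumors and 3477 to 5871 CPM in anti-PD1 tumors, which came close without overlap. It was 4201 to 6545 CPM in BOM tumors and 4269 to 6621 CPM in Vehicle tumors, which overlapped.

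H2-K1, a class I heavy chain gene (ENSMUSG00000061232.16, chromosome 17, 33996017 to 34000347), had 2052, 1473, 1414 and 2420.0 CPM in BOM plus anti-PD1 tumors, against 1337, 827, 959, 629.8 and 1181 CPM in anti-PD1 tumors. In the pair without anti-PD1 it had 899, 992, 1521 and 855 CPM in BOM tumors, against 1244, 1703, 904, 1069 and 762 CPM in Vehicle tumors. With anti-PD1 the groups did not overlap, and without it they covered nearly the same range, where BOM tumor 3 and Vehicle 2 were the highest of their groups. H2-K1 rose by 0.90 with anti-PD1 (adjusted p = 0.00994), against -0.09 without it (adjusted p = 0.861), or 0.23 without Vehicle 1 and 2 (adjusted p = 0.562). Its interaction was 0.99 (0.25 to 1.73; unadjusted p = 0.0114), or 0.68 with 16 libraries (-0.00 to 1.37; unadjusted p = 0.0505).

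Tap1, a subunit of the transporter that carries peptides into the endoplasmic reticulum (ENSMUSG00000037321.17, chromosome 17, 34187553 to 34197225), had 275, 121, 152 and 263 CPM in BOM plus anti-PD1 tumors, against 131, 69.1, 98.1, 44.2 and 116 CPM in anti-PD1 tumors. Without anti-PD1 the values were 68.7, 85.3, 163 and 64.2 CPM in BOM tumors, against 127, 179.9, 89.4, 97.7 and 57.1 CPM in Vehicle tumors. Here the groups overlapped also with anti-PD1, since anti-PD1 tumor 1 exceeded BOM plus anti-PD1 tumor 2. Tap1 rose by 1.14 with anti-PD1 (adjusted p = 0.0214), a call that ended without BOM plus anti-PD1 tumor 1 (0.0698) or 4 (0.0606) and in the fit with replicate blocks (0.0506). Its interaction was 1.37 (0.29 to 2.44; unadjusted p = 0.0156), or 0.92 with 16 libraries (-0.12 to 1.97; unadjusted p = 0.0804). The peptide loading factor Tapbp had an interaction of 1.09 or 0.67, the immunoproteasome subunit Psmb10 one of 1.14 or 0.68 and the light chain B2m one of 0.75 or 0.58, with 18 or 16 libraries.

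The 8 genes of MHC class II presentation, which dendritic cells, macrophages and B cells carry and interferon gamma can induce elsewhere, had a median interaction of 1.85, or 0.97 with 16 libraries, and 6 or 0 of them reached an unadjusted p under 0.05 (8.78% or 3.91% of all genes). With anti-PD1, BOM raised 7 of 8 (15.8% of all genes; median 1.75), but 1 without BOM plus anti-PD1 tumor 1 and 3, 2 and 2 without anti-PD1 tumors 2, 4 and 5. Without anti-PD1 it raised 0 of 8 in both fits, against 5.9% of all genes with 18 libraries and 11.7% with 16. The median was then -0.10 with 18 libraries and 2 of 8 positive, against 0.82 and 8 of 8 positive without Vehicle 1 and 2. The class II transactivator Ciita rose by 2.15 with anti-PD1 (adjusted p = 0.00109) and had an interaction of 1.86, or 1.18 with 16 libraries.

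Markers of macrophages and of T cells also had positive median interactions, with no gene called for the interaction, and their part in the result was not tested. In bulk tumors more cells of a type and more RNA per cell cannot be told apart. The 17 macrophage and monocyte markers summed to 643 to 1467 CPM in BOM plus anti-PD1 tumors, against 269 to 1282 CPM in anti-PD1 tumors. They summed to 548 to 1341 CPM in BOM tumors, against 573 to 1719 CPM in Vehicle tumors, and the ranges overlapped in both pairs. Their median interaction was 0.76, or 0.17 with 16 libraries, and with 18 libraries less 1 it was 0.189 without Vehicle 1 and 1.17 without anti-PD1 tumor 1. Of these markers 0 of 17 reached an unadjusted p under 0.05 in either fit. The 12 measured T cell markers summed to 41.1 to 75.5 CPM in BOM plus anti-PD1 tumors, against 22.3 to 59.8 CPM in anti-PD1 tumors. In BOM tumors the sum was 28.3 to 75.0 CPM, against 31.0 to 70.2 CPM in Vehicle tumors. Of these markers Cd3e, Cd2 and Cd5 were at 0 in 1 library each and Cd8b1 in 2. The interferon gamma gene Ifng itself was under the filter, with 63 counts over the 18 libraries, and so were all 6 natural killer cell markers. The 17 neuroendocrine markers of the tumor cells summed to 3815 to 4935 CPM in BOM plus anti-PD1, 4133 to 4822 CPM in BOM, 4441 to 4822 CPM in anti-PD1 and 4247 to 4919 CPM in Vehicle tumors, so that tumor cell transcripts were abundant in every library.

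Cd8a, the coreceptor of cytotoxic T cells (ENSMUSG00000053977.13, chromosome 6, 71373427 to 71379173), had 6.89, 1.32, 3.85 and 7.21 CPM in BOM plus anti-PD1 tumors, against 1.93, 0.875, 0.535, 0.292 and 1.41 CPM in anti-PD1 tumors. It had 0.536, 0.981, 2.96 and 1.39 CPM in BOM tumors, against 4.91, 4.41, 0.708, 0.920 and 0.137 CPM in Vehicle tumors. BOM plus anti-PD1 tumors 1, 3 and 4 were above all anti-PD1 tumors and tumor 2 was not, while Vehicle 1 and 2 exceeded all BOM tumors and Vehicle 3 to 5 lay below BOM tumors 2 to 4. Cd8a rose by 2.23 with anti-PD1 (adjusted p = 0.0302), a call that ended without BOM plus anti-PD1 tumor 1 (0.0761) or 4 (0.0774), without anti-PD1 tumor 2 (0.0535), 3 (0.0607) or 4 (0.0684), in limma voom (0.0528) and with the replicate block (0.0888). Its interaction was 2.99 (0.79 to 5.19; unadjusted p = 0.0106), and with 16 libraries 0.91 (-1.26 to 3.07; unadjusted p = 0.389). The difference without anti-PD1 was -0.76 (adjusted p = 0.541) and turned to 1.33 without Vehicle 1 and 2 (adjusted p = 0.254). The T cell list had a median interaction of 1.28, or 0.42 with 16 libraries, and 2.24 without BOM tumor 3 and 1.95 without anti-PD1 tumor 1. At an unadjusted p under 0.05 there were 4 and 2 of 12 genes (8.78% and 3.91% of all genes), among them Cd247, a signaling chain of the T cell receptor (2.83, or 2.18). The 6 measured cytotoxic effector genes had a median of 2.24, or 0.93, and the perforin gene Prf1 had 3.03, or 1.43.

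Cd274 encodes PD-L1, the ligand of the receptor that anti-PD1 blocks (ENSMUSG00000016496.7, chromosome 19, 29367455 to 29388095). It had 26.3, 10.8, 13.5 and 15.6 CPM in BOM plus anti-PD1 tumors, against 10.8, 7.0, 7.14, 3.65 and 5.64 CPM in anti-PD1 tumors. The other groups had 5.63, 3.80, 17.1 and 5.56 CPM in BOM tumors, against 18.5, 10.1, 6.55, 6.90 and 5.08 CPM in Vehicle tumors. With anti-PD1 the groups met at the edge, since BOM plus anti-PD1 tumor 2 and anti-PD1 tumor 1 both had 10.8 CPM, and in the other pair BOM tumor 3 and Vehicle 1 stood above the rest. Cd274 rose by 1.27 with anti-PD1 (adjusted p = 0.035), a call that ended without BOM plus anti-PD1 tumor 1 (0.132) or 4 (0.0502) and without anti-PD1 tumor 2 (0.054), 3 (0.0513), 4 (0.0775) or 5 (0.0667). Its interaction was 1.56 (0.25 to 2.88; unadjusted p = 0.0226), or 0.91 with 16 libraries (-0.34 to 2.16; unadjusted p = 0.144). The 9 measured checkpoint genes had a median of 1.45, or 0.81, and 0.777 without Vehicle 1 alone, among them the gene of PD1 itself, Pdcd1 (2.84, or 1.23). With anti-PD1 BOM raised 2 of the 9 and lowered 1 (15.8% and 16.6% of all genes). Without it 0 rose and 1 fell (5.9% and 8.63%). The 9 summed to 66.9 to 112 CPM in BOM plus anti-PD1 tumors, against 110 to 131 CPM in anti-PD1 tumors. Their sum was 52.4 to 91.1 CPM in BOM tumors, against 97.8 to 112 CPM in Vehicle tumors. A sum follows its most abundant members and can differ from most of the list. Of the 9 single BOM differences, 7 were positive with anti-PD1 (median 0.79, lowest -1.16). Only 1 was positive without it with 18 libraries (median -0.38). The 10 measured T cell chemokine and receptor genes were all positive, with a median of 1.38, or 0.68, and 0.889 without Vehicle 1 alone. Cxcl10, a chemokine that draws activated T cells, rose by 2.06 with anti-PD1 (adjusted p = 0.0138; 0.0621 without BOM plus anti-PD1 tumor 1) and had an interaction of 2.03, or 1.40.

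**Figure D4:**
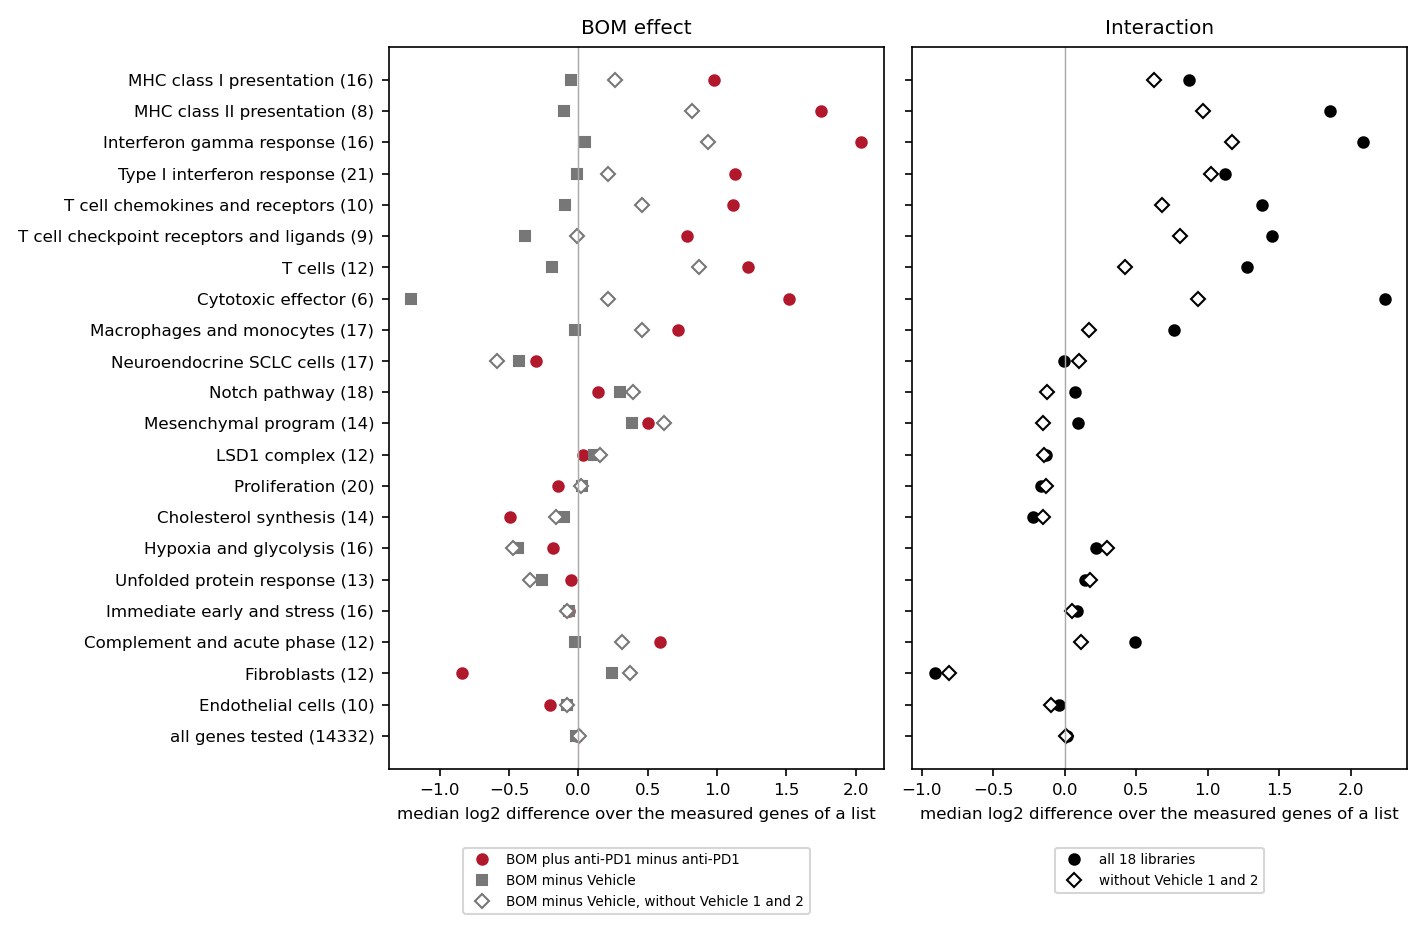
Median log2 difference over the measured genes of each list shown (number in brackets). The left panel gives BOM on top of anti-PD1, and BOM over Vehicle with and without Vehicle 1 and 2. The right panel gives the interaction with and without Vehicle 1 and 2. Several marker lists are not shown. Among these are adipocytes (median interaction 2.77, or 2.98 without Vehicle 1 and 2) and skeletal muscle (2.11, or -0.83). Each point is a median over genes, with no error; the interferon, MHC and T cell lists lie to the right of all genes tested (0.01) in the right panel, and fibroblast markers to the left (-0.91 and -0.81).

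The single genes with the lowest p were of varied function. The 20 named by lowest p had the same sign in both fits. They were picked in the fit of 18 libraries, and the other fit reuses 16 of these, so a change of sign was unlikely. Sgsm2, a regulator of small GTPases of the Rab family (ENSMUSG00000038351.14, chromosome 11, 74849261 to 74897060), had the lowest p among those named. It had 44.0, 48.8, 42.6 and 42.7 CPM in BOM plus anti-PD1 tumors, against 38.5, 34.5, 35.0, 41.3 and 43.1 CPM in anti-PD1 tumors. Without anti-PD1 it had 28.3, 29.7, 30.8 and 33.2 CPM in BOM tumors, against 39.2, 39.2, 37.5, 41.2 and 41.5 CPM in Vehicle tumors. Every BOM tumor lay below every Vehicle tumor, and the spread within each group was small, with Vehicle 1 and 2 among the rest of their group. Sgsm2 fell by 0.38 on the log2 scale with BOM alone (adjusted p = 0.00454) and rose by 0.21 with BOM on top of anti-PD1 (adjusted p = 0.0472). The rise was not called in limma voom or without most single libraries (adjusted p up to 0.177, without BOM plus anti-PD1 tumor 2), nor without Vehicle 1 and 2 (0.052). Its interaction was 0.59 ± 0.11 (SE; 0.36 to 0.82; unadjusted p = 4.38e-05; edgeR adjusted p = 0.391, DESeq2 adjusted p = 0.0167), and with 16 libraries 0.61 ± 0.13 (unadjusted p = 0.000144).

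Pla2g4f, a cytosolic phospholipase A2 that frees fatty acids from membranes (ENSMUSG00000046971.7, chromosome 2, 120299957 to 120314165), had 24.9, 30.3, 30.5 and 32.9 CPM in BOM plus anti-PD1 tumors, against 10.2, 9.27, 11.1, 11.2 and 8.17 CPM in anti-PD1 tumors. It had 23.4, 16.3, 18.3 and 21.5 CPM in BOM tumors, against 21.2, 21.8, 14.9, 9.66 and 14.1 CPM in Vehicle tumors. BOM plus anti-PD1 tumors were the highest of all groups, anti-PD1 tumors were lower than all but Vehicle 4, and Vehicle 1 and 2 lay among the BOM tumors. Pla2g4f rose by 1.57 with anti-PD1 (adjusted p = 4.48e-05), against 0.26 without it (adjusted p = 0.39), or 0.63 without Vehicle 1 and 2 (adjusted p = 0.014). The interaction was 1.31 ± 0.27 (SE; unadjusted p = 0.000131; DESeq2 adjusted p = 0.0167), or 0.96 ± 0.23 with 16 libraries (unadjusted p = 0.000594). Agt, the precursor of angiotensin (ENSMUSG00000031980.10), had 235, 118, 157 and 217 CPM in BOM plus anti-PD1 tumors, against 7.90, 7.70, 8.74, 8.46 and 7.04 CPM in anti-PD1 tumors. It had 82.7, 58.5, 142 and 80.5 CPM in BOM tumors, against 69.4, 122, 8.14, 10.6 and 13.9 CPM in Vehicle tumors. All BOM-treated tumors were far above the anti-PD1 tumors and Vehicle 3 to 5, and Vehicle 1 and 2 lay among the BOM tumors. Agt rose by 4.51 with anti-PD1 (adjusted p = 0.000126), against 0.94 without it (adjusted p = 0.262), a difference called without Vehicle 2 (1.67, adjusted p = 0.0246) and without Vehicle 1 and 2 (3.04, adjusted p = 1.92e-06). Its interaction was 3.57 (unadjusted p = 0.000548), or 1.47 (0.62 to 2.33; unadjusted p = 0.00207).

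Among the other positive values, the potassium channel subunit gene Kcnip1 had 4.39 with 18 libraries and 1.68 with 16, and the sodium proton exchanger gene Slc9a2 had 0.94 and 0.78. The genes C77080, Tmem179b and Tmem135 had 0.59, 0.63 and 0.45, and 0.58, 0.61 and 0.46 with 16 libraries. The negative values were smaller in size. Ica1l, related to an islet cell autoantigen, had -0.83, or -0.67, and fell by 1.25 with anti-PD1 (adjusted p = 1.81e-05). Its difference without anti-PD1 was -0.41 (adjusted p = 0.0678), or -0.56 without Vehicle 1 and 2 (adjusted p = 0.00413). The RNA binding gene Mex3b, the apoptosis regulator Caap1 and the zinc finger gene Zfp711 had -0.41, -0.54 and -0.54, and -0.37, -0.58 and -0.45 with 16 libraries. The mitochondrial phosphatase gene Pdp1, the spliceosome associated gene Ctnnbl1, the nutrient sensing GTPase gene Rraga, the heme lyase gene Hccs and the chaperone subunit gene Pfdn4 lay between -0.47 and -0.31, or between -0.41 and -0.29.

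**Figure D5:**
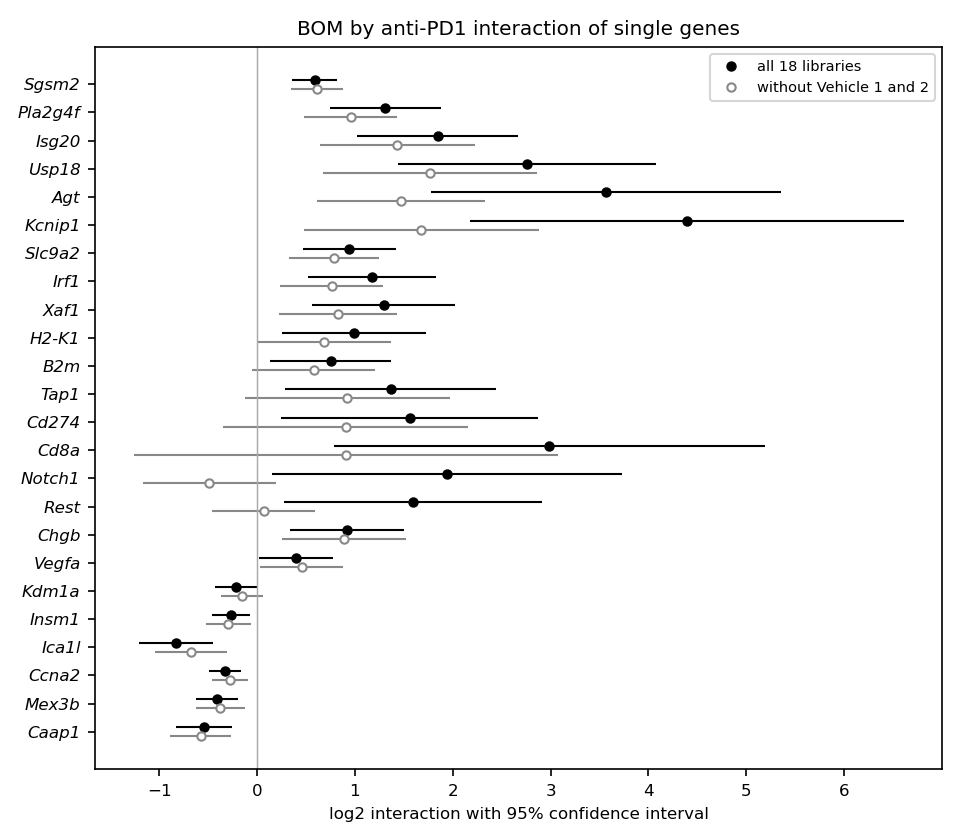
Log2 interaction of 24 genes with its 95% confidence interval (bars), from all 18 libraries (filled points) and without Vehicle 1 and 2 (open points). Sgsm2 and Caap1 hardly move between the fits, and the values of Notch1 (1.94 and -0.49) and Rest (1.60 and 0.07) lie far apart.

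Several Notch and mesenchymal genes, which LSD1 is known to repress in SCLC, rose with BOM in both pairs, and their interaction differed between the fits with and without Vehicle 1 and 2. Of 18 Notch pathway genes BOM raised 8 and lowered 5 with anti-PD1 (15.8% and 16.6% of all genes), with 3 lowered without BOM plus anti-PD1 tumor 3 or 4 or anti-PD1 tumor 4. Without anti-PD1 it raised 5 and lowered 2 (5.9% and 8.63% of all genes), or 7 and 3 without Vehicle 1 and 2 (11.7% and 11.6%). The 5 rises were 3 without BOM tumor 4, 1 without Vehicle 3, 1 without Vehicle 4 and 2 without Vehicle 5, and the 2 falls were 0 or 1 without any BOM tumor or Vehicle 2, 4 or 5. The list's median interaction was 0.08, or -0.12 with 16 libraries, and 0.0301 to 0.102 with single libraries left out.

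Notch1, a receptor of the pathway (ENSMUSG00000026923.15, chromosome 2, 26457903 to 26516663), had 80.8, 69.1, 63.0 and 57.5 CPM in BOM plus anti-PD1 tumors, against 4.67, 4.55, 5.89, 4.38 and 1.83 CPM in anti-PD1 tumors. It had 103, 89.8, 79.8 and 87.0 CPM in BOM tumors, against 52.5, 32.2, 3.01, 5.21 and 3.57 CPM in Vehicle tumors. All 8 BOM-treated tumors exceeded all others, anti-PD1 tumors and Vehicle 3 to 5 were low, and Vehicle 1 and 2 stood between. Notch1 rose by 4.01 with anti-PD1 (adjusted p = 0.000262) and by 2.06 without it (adjusted p = 0.016), or 4.50 without Vehicle 1 and 2 (adjusted p = 1.27e-09). The interaction was 1.94 (0.15 to 3.73; unadjusted p = 0.0353) with 18 libraries and -0.49 (-1.17 to 0.19; unadjusted p = 0.147) with 16. Among related genes the receptor Notch2 had 1.10 and 0.30, the target Hes1 0.38 and -0.23, and the ligand Jag1 1.10 and 0.70.

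Rest, a repressor of neuronal genes that works with CoREST (ENSMUSG00000029249.15, chromosome 5, 77265491 to 77286432), had 38.5, 41.2, 42.3 and 34.2 CPM in BOM plus anti-PD1 tumors, against 5.48, 3.50, 5.53, 3.21 and 4.51 CPM in anti-PD1 tumors. It had 46.4, 37.8, 38.8 and 42.5 CPM in BOM tumors, against 30.7, 20.4, 6.19, 5.21 and 3.43 CPM in Vehicle tumors. The order was that of Notch1, with Vehicle 1 and 2 between the BOM-treated and the other tumors. Rest rose by 3.14 with anti-PD1 (adjusted p = 0.000157) and by 1.54 without it (adjusted p = 0.0188), or 3.08 without Vehicle 1 and 2 (adjusted p = 7.73e-09). Its interaction was 1.60 (0.28 to 2.91) with 18 libraries and 0.07 (-0.46 to 0.60; unadjusted p = 0.784) with 16. The transcription factor genes Snai2 and Sox9 had 1.79 and 1.42 with 18 libraries, and -0.01 and 0.03 with 16. The 14 mesenchymal genes had a median of 0.09, or -0.15 with 16 libraries, and ran from -0.184 without Vehicle 1 to 0.531 without anti-PD1 tumor 1. BOM raised 4 with anti-PD1 and 4 without it, against 15.8% and 5.9% of all genes, the last count being 1 without BOM tumor 1 or 2 or Vehicle 3, 4 or 5 and 2 without BOM tumor 4.

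More neuroendocrine genes fell than rose with BOM in both pairs. Of 17 genes 3 rose and 8 fell with anti-PD1, against 15.8% and 16.6% of all genes. Without it 3 rose and 10 fell, against 5.9% and 8.63%, or 5 and 10 without Vehicle 1 and 2, against 11.7% and 11.6%. The 10 falls were 5 without BOM tumor 1, and the 3 rises were 1 without BOM tumor 4 and 5 without BOM plus anti-PD1 tumor 3 or 4 or Vehicle 2. The median interaction was -0.00, or 0.10 with 16 libraries, and -0.083 to 0.0828 with single libraries left out. Chgb, a granin of secretory granules (ENSMUSG00000027350.8, chromosome 2, 132781278 to 132795079), had 159, 253, 117 and 224 CPM in BOM plus anti-PD1 tumors, against 198, 132, 188, 195 and 133 CPM in anti-PD1 tumors. It had 75.2, 105, 96.0 and 103 CPM in BOM tumors, against 154, 181, 141, 132 and 197 CPM in Vehicle tumors. All 4 BOM tumors lay below every other tumor of the set, while the BOM plus anti-PD1 and anti-PD1 tumors overlapped. Chgb fell by 0.76 with BOM alone (adjusted p = 0.0167; 0.0636 without BOM tumor 1), and with anti-PD1 the difference was 0.15 (adjusted p = 0.579). Its interaction was 0.92 (unadjusted p = 0.00384), or 0.89 with 16 libraries (unadjusted p = 0.00897). Insm1, a neuroendocrine transcription factor that recruits LSD1, had the opposite sign, -0.27, or -0.29, and rose by 0.41 with BOM alone (adjusted p = 0.00123).

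Proliferation genes had small negative interactions with little spread. Of 20 genes 19 were negative in each fit, with a median of -0.16, or -0.13 with 16 libraries, against 0.01 over all genes, and 6 or 5 reached an unadjusted p under 0.05, against 8.78% or 3.91% of all genes. With anti-PD1 BOM lowered 8 of 20 (5 without BOM plus anti-PD1 tumor 3, anti-PD1 tumor 4 or anti-PD1 tumor 5), against 16.6% of all genes. Without anti-PD1 1 rose, Rrm2, and 1 fell, Birc5 (5.9% and 8.63% of all genes). Both calls ended without BOM tumor 1, 2 or 4 or Vehicle 3 or 5. That of Birc5 also ended without BOM plus anti-PD1 tumor 2, BOM tumor 3, anti-PD1 tumor 1, 3, 4 or 5, Vehicle 2 or 4, or Vehicle 1 and 2 together, and under both other filters. Ccna2, the S phase and mitosis cyclin A2 (ENSMUSG00000027715.9, chromosome 3, 36564865 to 36572150), had 184, 179.9, 172 and 177 CPM in BOM plus anti-PD1 tumors, against 213, 222, 218, 244 and 236 CPM in anti-PD1 tumors. It had 198, 197, 202 and 203 CPM in BOM tumors, against 191, 198, 227, 207 and 194 CPM in Vehicle tumors. All BOM plus anti-PD1 tumors lay below all other tumors, and the BOM tumors lay within the Vehicle range. Ccna2 fell by 0.35 with anti-PD1 (adjusted p = 0.000236), against -0.02 without it (adjusted p = 0.855). The interaction was -0.33 ± 0.08 (SE; -0.49 to -0.16; unadjusted p = 0.0006), or -0.28 with 16 libraries (-0.46 to -0.09; unadjusted p = 0.00523). The spindle checkpoint kinase Bub1 had -0.36, or -0.28 with 16 libraries, and the mitotic cyclin Ccnb1 -0.30 in both fits. The nucleotide synthesis enzymes Rrm2 and Tyms had -0.27 and -0.22, and -0.30 and -0.23 with 16 libraries.

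Cholesterol synthesis genes were negative as well, 14 of 14 with 18 libraries and 13 of 14 with 16, with medians of -0.22 and -0.15. The first median was -0.139 without BOM plus anti-PD1 tumor 2 and -0.341 without tumor 4 of that group. BOM lowered 8 of 14 with anti-PD1 (16.6% of all genes) and 4 of 14 without it (8.63%), or 2 without BOM tumor 2, BOM tumor 4 or Vehicle 3. Hmgcs1, which makes the substrate of HMG-CoA reductase, fell by 1.05 with anti-PD1 (adjusted p = 6.09e-05) and by 0.62 without it (adjusted p = 0.00595), an interaction of -0.43, or -0.31 with 16 libraries. The farnesyl pyrophosphate synthase gene Fdps had an interaction of -0.75, or -0.68. With 18 libraries BOM lowered 6 of 16 hypoxia and glycolysis genes without anti-PD1 (8.63% of all genes, median -0.43). It lowered 3 of 16 with anti-PD1 (16.6% of all genes, median -0.18) and raised 0 in either pair. The interaction, here a smaller median fall on top of anti-PD1, was positive in 15 of 16 with 18 libraries. It was positive in 16 of 16 with 16, and the interaction medians were 0.22 and 0.29. The 18-library interaction median was -0.03 without BOM plus anti-PD1 tumor 3 and 0.342 without tumor 4 of that group. The vascular growth factor Vegfa had 0.40, or 0.46, and the vasodilator peptide gene Adm 0.84, or 0.90.

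Kdm1a, the target of BOM (ENSMUSG00000036940.15, chromosome 4, 136550540 to 136602723), had 399.7, 458, 359 and 468 CPM in BOM plus anti-PD1 tumors, against 568, 574, 576, 581 and 568 CPM in anti-PD1 tumors. It had 425, 457, 411 and 444 CPM in BOM tumors, against 446, 508, 507, 544 and 535 CPM in Vehicle tumors. With anti-PD1 the groups did not overlap, and without it the highest BOM tumor exceeded Vehicle 1. Kdm1a transcripts fell by 0.44 with anti-PD1 (adjusted p = 0.000256) and by 0.23 without it (adjusted p = 0.043), a call that ended without most single libraries (up to 0.139, without BOM tumor 3), and fell by 0.28 without Vehicle 1 and 2 (adjusted p = 0.0128). BOM blocks the enzyme, so the transcript does not check the treatment. The interaction was -0.22 (unadjusted p = 0.0459), or -0.15 with 16 libraries (unadjusted p = 0.16). The 12 genes of the LSD1 complex had medians of -0.13 and -0.14, and 5 and 2 reached an unadjusted p under 0.05, all negative (negative in 3.02% and 1.38% of all genes).

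Markers of host tissue varied widely between tumors. The 12 fibroblast markers had a median interaction of -0.91, or -0.81 with 16 libraries and -0.338 without anti-PD1 tumor 1, and 0 of 12 reached an unadjusted p under 0.05. The collagen gene Col3a1 had -1.68, or -1.73. They summed to 434 to 780 CPM in BOM plus anti-PD1 tumors and 305 to 2480 CPM in anti-PD1 tumors, and to 588 to 2120 CPM in BOM tumors and 681 to 1505 CPM in Vehicle tumors. The 12 skeletal muscle markers had a median of 2.11, which turned to -0.83 without Vehicle 1 and 2 and was 9.72 without BOM tumor 2, 1.33 without BOM plus anti-PD1 tumor 3 and 1.07 without Vehicle 1. Their sums were 10.1 to 210 CPM in BOM plus anti-PD1 tumors, against 11.4 to 19.5 CPM in anti-PD1 tumors. In BOM tumors the muscle sum was 9.36 to 1443 CPM, against 13.3 to 181 CPM in Vehicle tumors. In edgeR no muscle marker reached an unadjusted p under 0.05.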

How the data were processed

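The authors deposited raw counts of reads per gene. The submitters' processing notes list bcl2fastq, FastQC 0.11.9, STAR 2.7, Subread 2.0, featureCounts and mm10, with no settings. The labels name polyadenylated RNA, TRIzol extraction and a NEBNext kit that does not mark strand, so a gene and its antisense neighbour cannot be told apart. Each of the 18 tumor columns entered under its labelled treatment. The labels do not say whether each tumor came from a separate mouse, and p-values measure the spread between these tumors. Totals were 5.64 to 82.2 M counts. Within groups no pair of libraries agreed within sampling noise (chi-square per degree of freedom of at least 3.54).

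Of 29745 genes, filterByExpr left 14332 (14450 without Vehicle 1 and 2). Counts were scaled by TMM and tested with edgeR 4.0.16 (glmQLFit, glmQLFTest) in R 4.3.3 in one fit of 4 groups, with 14 (12) residual degrees of freedom and a biological coefficient of variation of 0.181 (0.158). p-values were adjusted by Benjamini-Hochberg over all genes tested, with calls made under 0.05. CPM are TMM-scaled. Alternatives were DESeq2 1.42.0, limma 3.58.1 (voom with sample quality weights), scaling by RLE or by totals alone, no filter, a filter at 1 CPM in 4 libraries, the replicate number as a block, Vehicle 1 thinned, omission of Gm26917, and each library left out in turn.

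The members and the 30 gene lists (376 genes) were chosen with earlier results of these data known. Some genes stand in 2 lists (Cd274, Cxcl9, Cxcl10, Ccl5, Insm1, Dll3, C1qa and others). Genes were named as the 10 of lowest p in each direction (mean log2 CPM of 2 or more, predicted genes left out), the 2 members of lowest p of each list, and a fixed set that included Kdm1a, H2-K1, Tap1, Cd274, Cd8a and Notch1. Adcy5, Clec1b, Gbp3, Bub1, Rrm2, Tyms, Birc5, Jag1, Notch2, Sox9 and other list members given as examples were chosen after their values were seen. Coordinates are those of GENCODE M21 (98.31% of the identifiers matched), and promoter windows are those of RefSeq. In simulated data with these depths and spreads, edgeR found 84 of 100 interactions of 2-fold with 18 libraries. It found 92 of 100 of 4-fold (15 false calls). With 16 libraries it found 80 and 93 (4 false calls). The changes were planted in the BOM plus anti-PD1 group alone, in genes with a mean log2 CPM of 2 or more. The simulation held no BOM difference and no Vehicle tumors set apart, so its counts do not give the power in these tumors.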

Additional observations from a re-analysis of the deposited data

Results flagged for a closer look

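Within-group outliers were sought by Dixon's test at the 95% level over 180 groups of values (library totals, named genes and summed list levels, in groups of 4 or 5 tumors), and 23 were found. Chance alone gives about 1 in 20.

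BOM tumor 3 was the high tumor of its group for interferon and T cell transcripts. It had a summed interferon gamma response of 1099 CPM, checkpoint genes of 91.1 CPM, T cell chemokine genes of 237 CPM and cytotoxic genes of 19.2 CPM, and single values of 17.1 CPM for Cd274 and 103 CPM for Igtp. Its level of Igtp lay within the range of the BOM plus anti-PD1 tumors (53.1 to 226 CPM).

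Anti-PD1 tumor 1 was high for Usp18 (3.71 CPM), the interferon gamma response (602 CPM), the type I interferon response (338 CPM) and the unfolded protein response (3258 CPM). BOM plus anti-PD1 tumor 1 was high for T cell chemokine genes (363 CPM). The call counts of the interferon and MHC lists were lowest, or shared the lowest value, without BOM plus anti-PD1 tumor 1.

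Vehicle tumor 1 was high for its total (82.2 M counts) and for chemokine genes (209 CPM), mesenchymal genes (1104 CPM), complement genes (941 CPM), macrophage markers (1719 CPM), neutrophil markers (10.3 CPM) and erythrocyte markers (133 CPM).

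Markers of host tissue were high in single tumors of several groups. Skeletal muscle markers reached 1443 CPM in BOM tumor 2. Adipocyte markers reached 203.8 CPM in BOM plus anti-PD1 tumor 1, 327 CPM in BOM tumor 1 and 582 CPM in Vehicle tumor 4. B and plasma cell markers reached 52.1 CPM in anti-PD1 tumor 5.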

How the results depend on the processing

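The interaction had 0 calls in edgeR under every scaling, filter and omission tried, with 18 and with 16 libraries. DESeq2 gave 6 calls (6 higher) with 18 libraries and 0 with 16. Of 72 named genes with up to 28 alternatives each, 65 kept their sign and side of the threshold in all of them. Since edgeR and voom called 0 genes, the side of the threshold could hardly change. Size was not part of this count, and that of Agt went from 3.57 to 1.47 without Vehicle 1 and 2. The replicate number as a block gave 0 interaction calls (1190 at an unadjusted p under 0.05). Of 25 same-numbered pairs 7 had a correlation over 0.1 (-0.356 to 0.512), and 1 of 18 libraries matched best with its own number. Among tumors numbered 1, anti-PD1 and Vehicle correlated at 0.512. BOM plus anti-PD1 correlated with them at 0.439 and 0.292, and BOM was negative with each (-0.356 to -0.112). Whether same-numbered tumors share a factor was not tested further. The block moved the median of skeletal muscle to 4.95.

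Without Vehicle 1 and 2, BOM without anti-PD1 had 3363 calls (1689 higher). The list medians were then 1.17 for interferon gamma, 0.806 for checkpoint genes, -0.124 for Notch, 0.424 for T cells, 0.929 for cytotoxic genes, -0.828 for muscle, -1.02 for erythrocytes and 0.0629 for nerve. The interaction turned to -0.488 for Notch1, -0.23 for Hes1, -0.0138 for Snai2 and -1.78 for Acta1. The difference of BOM without anti-PD1 turned to 0.228 for H2-K1, 0.232 for Tap1, 0.375 for Cd274 and 1.33 for Cd8a. In voom the medians were 2.24 for T cells, 1.19 for neutrophils and 0.884 for adipocytes. The cause was not tested.

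With single libraries left out, BOM without anti-PD1 had 1210 to 2971 calls (422 to 1390 higher, 721 to 1581 lower). List medians ran from 1.51 to 2.76 for interferon gamma, 0.739 to 1.66 for type I interferon, 0.733 to 1.08 for MHC class I, -0.203 to -0.121 for proliferation, 0.777 to 1.78 for checkpoint genes and 0.896 to 2.24 for T cells. They ran from -0.0251 to 0.342 for hypoxia, -0.173 to -0.0876 for the LSD1 complex, 1.07 to 9.72 for muscle, -0.111 to 4.66 for adipocytes, -1.19 to 0.939 for erythrocytes and 0.192 to 0.423 for nerve. BOM without anti-PD1 ran from -0.0435 to 0.0206 for Ccna2, -0.0412 to 0.273 for Irf1, -0.304 to 0.101 for H2-K1, -0.601 to 0.0259 for Tap1 and -0.951 to 0.141 for Cd274. BOM with anti-PD1 ran from -0.0246 to 0.333 for Chgb. Ifng and the natural killer cell markers were under the filter on low counts, and no interaction was detectable for them at this depth.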

Other observations

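The 13 measured genes of the unfolded protein response, which relieves stress in the endoplasmic reticulum, had a median interaction of 0.14 with 18 libraries and 0.18 with 16, and 10 and 13 of them were positive. It was 0.0798 without BOM plus anti-PD1 tumor 2. The 12 complement and acute phase genes had a median of 0.49, or 0.12 with 16 libraries, and with single libraries left out it ran from -0.135 without BOM plus anti-PD1 tumor 1 to 1.15 without anti-PD1 tumor 1. Among them Lcn2, an iron-binding acute phase protein, had 3.40, or 3.59 with 16 libraries (unadjusted p = 0.00175 and 0.00193). The 16 immediate early and stress genes had a median of 0.09, or 0.05, which ran from 0.0306 without BOM plus anti-PD1 tumor 3 to 0.142 without Vehicle 3, and 0 and 1 of them reached an unadjusted p under 0.05. Endothelial markers had a median of -0.04, or -0.09, which ran from -0.241 without BOM tumor 4 to 0.274 without BOM tumor 3, and 0 of 10 reached that p in either fit. Adipocyte markers had a median of 2.77 over 7 genes, or 2.98 over 8, and none reached it. With single libraries left out the adipocyte median ran from -0.111 without BOM plus anti-PD1 tumor 1 to 4.66 without BOM tumor 1.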
